A study of Mus musculus with 8 samples.

Results

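The 6 protein-coding genes of the mouse mitochondrial genome that belong to respiratory complexes III, IV and V were followed in adipocyte RNA-seq: mt-Cytb of complex III, mt-Co1, mt-Co2 and mt-Co3 of complex IV, and mt-Atp6 and mt-Atp8 of complex V. They were picked by matching the Ensembl identifiers of the deposited counts to mouse gene symbols, a rule that uses gene identity only. All 6 are among the 43629 genes listed. The cells were mouse 3T3-L1 adipocytes, a fat cell line of clonal origin that differentiates in culture, induced with insulin, dexamethasone, isobutylmethylxanthine and rosiglitazone and treated on day 8. In each of 4 groups 2 cultures were kept for 24 h, either untreated, with 2 µM A66 (an inhibitor of the PI3K catalytic subunit p110α), with 0.5 mM palmitate bound to BSA, or with palmitate and A66 at those doses. The controls are labelled untreated, whereas the study's methods describe DMSO as vehicle and a lower A66 dose, so that effects of A66 and its vehicle cannot be told apart, nor those of palmitate and BSA.

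The mitochondrial genome is a small circle that is copied into long transcripts running over many genes, from which tRNAs are cut out to free the mRNAs and rRNAs. Cytochrome b, encoded by mt-Cytb, carries the quinone-binding sites of complex III, the products of mt-Co1, mt-Co2 and mt-Co3 form the catalytic core of cytochrome c oxidase, and the products of mt-Atp6 and mt-Atp8 sit in the membrane part of ATP synthase. Every other subunit of these complexes comes from nuclear genes and is imported, so each complex needs both genomes.

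Library totals ran from 42247091 to 57529803 counts, and the 6 genes held 6.61 to 7.19% of them. All 10 adipocyte markers examined were present in every library, for example Adipoq, the gene of the fat cell hormone adiponectin, at 2049 to 2547 CPM (counts per 1000000 counts of the scaled library total), while the brown fat gene Ucp1, the preadipocyte gene Dlk1 and the macrophage gene Adgre1 had 0 counts in every library. Other genes of those lists were present, with 3 of 6 brown or beige fat markers above the floor of 3 counts (Ppargc1a at 55.4 to 63.8 CPM and Cox7a1 at 36 to 103 counts among them) and 2 of 4 macrophage markers (Cd68 at 109 to 286 counts). Fibroblast genes were also present, with 9 of 10 markers above that floor and Col3a1, a collagen gene, at 2953 to 3537 CPM. In RNA from whole cultures, fewer cells of a type and less RNA per cell cannot be told apart.

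The genes lie on the + strand of the mitochondrial chromosome of GRCm38 and have no introns: mt-Co1 at chrM:5328-6872, mt-Co2 at chrM:7013-7696, mt-Atp8 at chrM:7766-7969, mt-Atp6 at chrM:7927-8607, mt-Co3 at chrM:8607-9390 and mt-Cytb at chrM:14145-15288. The coding sequences of mt-Atp8 and mt-Atp6 overlap by 43 bases, so that a read covering the overlap can match both genes. The whole of mt-Atp8 from the GENCODE M21 transcripts is shown because it was among the most abundant of the 6 and its end is the start of mt-Atp6, with the shared bases in capitals.
mt-Atp8: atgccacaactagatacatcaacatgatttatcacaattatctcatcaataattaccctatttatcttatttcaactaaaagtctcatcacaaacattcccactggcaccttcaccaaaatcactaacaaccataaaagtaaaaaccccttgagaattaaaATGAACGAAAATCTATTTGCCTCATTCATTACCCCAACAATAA

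Several of these genes have near-identical copies in the nuclear genome, annotated as pseudogenes. Over its 681 bases the chromosome 1 copy of mt-Co2, Gm28661, had no difference from the mitochondrial gene, whereas the chromosome 2 copy Gm13341 was 95.8% identical. The stretch from base 457 to base 490 of mt-Co2, counted from 1 at its first base (chrM:7469-7502), shows both cases. The same stretch lies at chr1:24615076-24615109 in Gm28661 and at chr2:22587485-22587518 in Gm13341, each on the - strand. Capitals mark the bases that differ between the lines, T462C, C474T and C477T, with the mitochondrial base first.
mt-Co2: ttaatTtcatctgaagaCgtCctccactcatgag
Gm28661: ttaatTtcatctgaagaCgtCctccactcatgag
Gm13341: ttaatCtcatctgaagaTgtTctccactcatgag

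For mt-Co1 the copies were less complete. Gm29216 on chromosome 1 covers only 492 bases at the 3′ end with 6 differences, and Gm13340 on chromosome 2 covers all 1545 bases with 37 differences. Bases 1128 to 1187 of mt-Co1 (chrM:6455-6514) are given beside chr1:24616064-24616123 and chr2:22588461-22588520, both on the - strand. In capitals are C1134T, T1179C and G1180A of Gm13340, again counted from the first base of the mitochondrial gene.
mt-Co1: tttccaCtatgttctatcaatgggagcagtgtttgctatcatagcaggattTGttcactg
Gm29216: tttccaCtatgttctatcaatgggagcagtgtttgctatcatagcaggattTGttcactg
Gm13340: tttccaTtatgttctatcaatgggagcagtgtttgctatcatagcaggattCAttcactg

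The first 60 bases of mt-Co3 (chrM:8607-8666) and of its chromosome 1 copy Gm28437 (chr1:24613912-24613971, - strand) are the same, as are all 783 bases of that copy, so these lines hold no capitals.
mt-Co3: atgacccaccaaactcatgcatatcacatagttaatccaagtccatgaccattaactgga
Gm28437: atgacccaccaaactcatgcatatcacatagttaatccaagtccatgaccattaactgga

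The levels of the 6 genes differed widely from each other. From library to library the 4 abundant genes varied by at most 1.20-fold, mt-Co3 by 1.39-fold and mt-Co2 by 1.99-fold in CPM. Expressed per kilobase of transcript, the median level over the 8 libraries was 34779 CPM per kilobase for mt-Co1, 15606 for mt-Atp8 and 8996 for mt-Cytb, which ranked 1, 2 and 3 by mean level among the genes tested. The place of mt-Atp8, with 204 bases, rests on the division by length. Its CPM was 2991 to 3471, against 9719 to 10889 for mt-Cytb. The median level of mt-Atp6 was 670 CPM per kilobase (rank 38). By contrast mt-Co3 and mt-Co2 had medians of 2.64 and 1.75 CPM per kilobase (ranks 9616 and 10101), 3410-fold and 5145-fold below mt-Cytb.

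This order of levels held in all 8 libraries down to mt-Co3, with each ratio of neighbours above 1 throughout, from 1.64 to 1.84 for mt-Atp8 over mt-Cytb and from 221 to 351 for mt-Atp6 over mt-Co3. Between mt-Co3 and mt-Co2 it held in 7 of 8 libraries, with a ratio between 0.949 and 1.69, so that these neighbours did not differ beyond their spread. Within complex V, counts of mt-Atp8 exceeded those of mt-Atp6 by 6.37 to 7.56 times, although the genes overlap. This is a ratio of counts, and whether it reflects amounts of RNA was not tested.

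**Figure D1:**
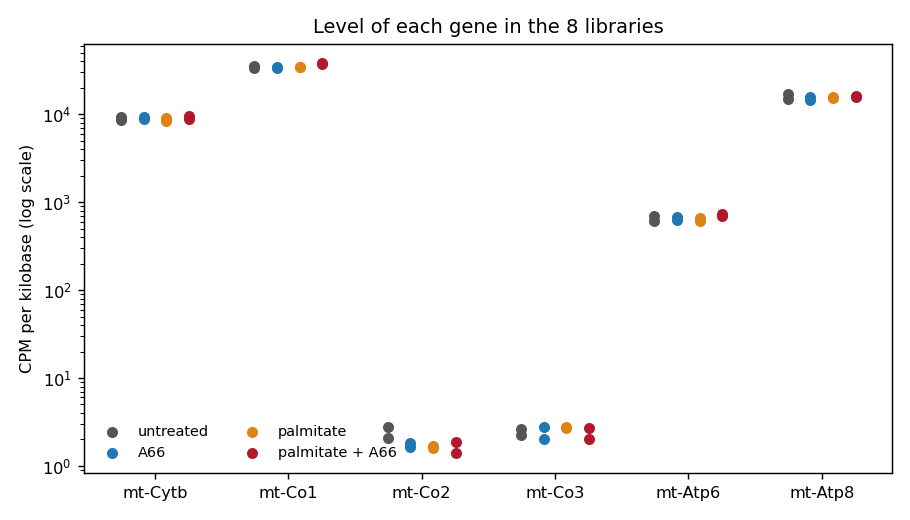
Level of each of the 6 genes, in CPM per kilobase of transcript on a log scale, with 1 point per library and colours for the 4 groups. The points of mt-Cytb, mt-Co1, mt-Atp8 and mt-Atp6 nearly coincide, and mt-Co2 and mt-Co3 sit between 1.39 and 2.78 CPM per kilobase.

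The lowest values were those of genes with exact nuclear copies, but not every gene with copies was low. Of all windows of 100 bases, the read length, 99.5% of those in mt-Co2, 99.9% in mt-Co3 and 99.5% in mt-Atp6 were found unchanged in an annotated transcript outside the mitochondrial genome, against 30.8% in mt-Co1 and 0% in mt-Atp8 and mt-Cytb. Among the 7 mitochondrial mRNAs of complex I, mt-Nd3 and mt-Nd4l had shares of 97.6% and 98.5% and medians of 5.91 and 25.3 CPM per kilobase, whereas mt-Nd1, with a share of 0%, stood at 7345. The order was not strict, since mt-Nd6 with a share of 0% had a median of 690 CPM per kilobase, close to mt-Atp6, and mt-Nd4 with 60.8% had 4051. The chromosome 1 copies had 24 to 50 counts per library for Gm28661, 46 to 83 for Gm28437 and 18 to 100 for Gm10925, the copy of mt-Atp6 with 678 identical bases. For Gm28438, the copy of mt-Nd3, there were 407 to 582 counts, against 81 to 117 of mt-Nd3 itself.

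How reads that match several places were counted is not given in the sources used here, and its part in the low values was not tested. The windows were compared only with annotated transcripts. The stretch of chromosome 1 between Gm10925 and Gm28661, where a copy of mt-Atp8 would lie, has no annotated transcript and was not compared. Levels of mt-Co2, mt-Co3 and mt-Atp6 are therefore uncertain as amounts of RNA, and their fold changes below are uncertain as changes of the mRNAs. With the copies' counts added, some estimates of mt-Co2 and mt-Co3 changed sign.

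**Figure D2:**
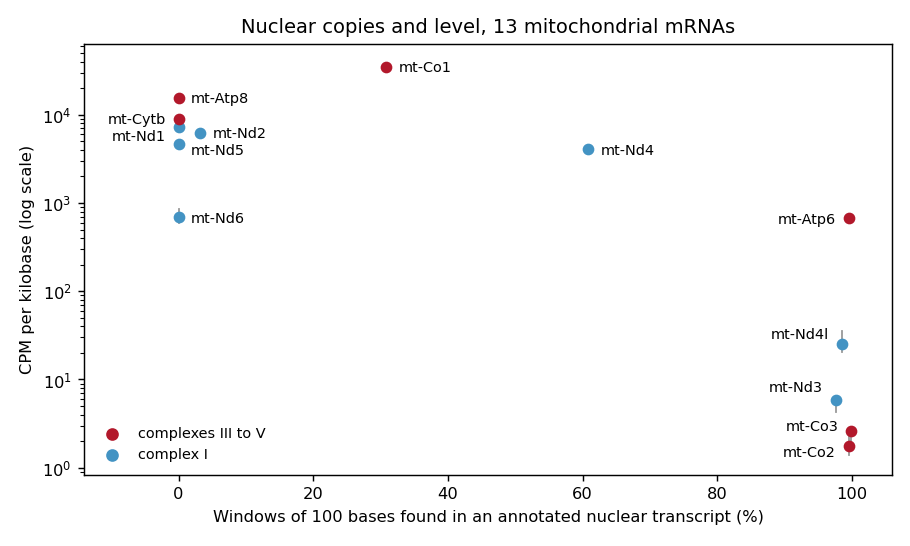
Share of 100-base windows of each of the 13 mitochondrial mRNAs that occur unchanged in an annotated nuclear transcript (horizontal, in %) against the median level over the 8 libraries (vertical, CPM per kilobase on a log scale), with grey lines from the lowest to the highest library. The genes with the smallest levels, mt-Co2 and mt-Co3, have shares of 99.5% and 99.9%, and mt-Atp6 with the same share as mt-Co2 stands at 670 CPM per kilobase.

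The most abundant of the 6, mt-Co1, encodes the subunit of complex IV that holds the site of oxygen reduction. Its level was 55081 and 52051 CPM in the untreated libraries, 53025 and 52610 under A66, 53480 and 53989 under palmitate, and 57888 and 58661 under palmitate plus A66. The pair with palmitate plus A66 lay above the other 6 libraries, and all A66 and palmitate values lay between the untreated pair.

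The level of mt-Atp6, which encodes the subunit that forms the proton path of ATP synthase, was 476 and 417 CPM in untreated cells, 466 and 431 under A66, 447 and 416 under palmitate, and 477 and 499 under palmitate plus A66. Again the highest values were the 2 of palmitate plus A66, but the first untreated library nearly reached the lower of them. The level of its neighbour mt-Atp8, a small subunit of the same membrane part, was 3471 and 3042 CPM in untreated cells, 3184 and 2991 under A66, 3197 and 3143 under palmitate, and 3313 and 3183 under palmitate plus A66. All 4 groups of mt-Atp8 fell within the range of the untreated libraries except for the second A66 library, which was the lowest.

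For mt-Cytb the level was 10712 and 9798 CPM in untreated cells, 10632 and 10240 under A66, 9719 and 10343 under palmitate, and 10223 and 10889 under palmitate plus A66. No group stood apart. The values of the 8 libraries differed by at most 1.12-fold for mt-Cytb, 1.13-fold for mt-Co1, 1.16-fold for mt-Atp8 and 1.20-fold for mt-Atp6.

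The remaining genes of complex IV rested on few counts. In mt-Co2, which encodes the subunit that accepts electrons from cytochrome c, there were 80 and 76 counts in the untreated libraries, 64 and 52 under A66, 63 and 62 under palmitate, and 46 and 63 under palmitate plus A66. In CPM these were 1.88 and 1.41, 1.24 and 1.11, 1.09 and 1.16, and 0.948 and 1.26, the untreated pair being the highest. Counting error alone gives the 80 counts an exact Poisson 95% interval of 63.4 to 99.6.

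In mt-Co3, the gene of the third core subunit, there were 87 and 96 counts in the untreated pair, 113 and 74 under A66, 122 and 116 under palmitate, and 76 and 104 under palmitate plus A66, or 2.05 and 1.78, 2.18 and 1.58, 2.11 and 2.16, and 1.57 and 2.09 CPM. The A66 pair spanned most of this range. With counts this low only large changes of mt-Co2 and mt-Co3 were detectable.

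**Figure D3:**
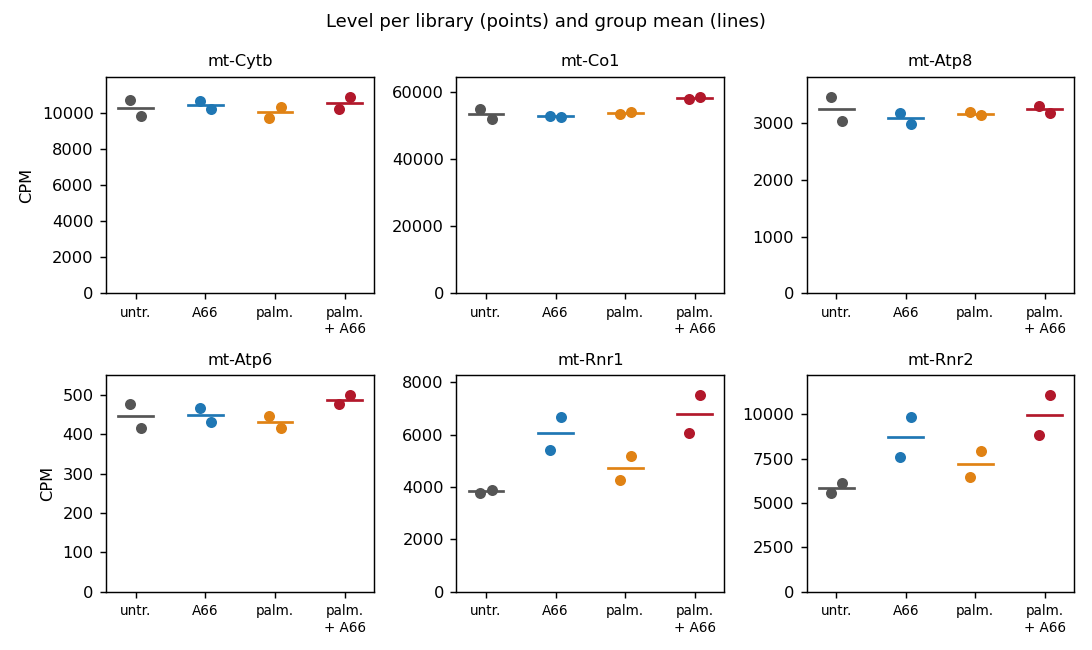
CPM of the 4 abundant genes of complexes III to V and of the 2 mitochondrial rRNAs, with 1 point per library and a line at the mean of each group (2 libraries each), all axes starting at 0. The mRNAs stay within 1.20-fold, with the palmitate plus A66 pair of mt-Co1 on top at 57888 and 58661 CPM, and the rRNAs range over 1.99-fold.

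Whether A66 alters the counts of these genes in otherwise untreated adipocytes was tested first, with edgeR's quasi-likelihood test across all genes and Benjamini-Hochberg adjustment. None of the 6 changed at an adjusted p of 0.05, against 1.84% of the 14158 genes tested. At an unadjusted p under 0.05 the count was also 0 (1813 of 14158 over all genes), and DESeq2 called 0 but gave no adjusted p for mt-Co2 and mt-Co3. For mt-Co1 the log2 fold change was -0.017 (SE 0.031, adjusted p = 0.881 in edgeR), for mt-Cytb 0.028 (SE 0.038) and for mt-Atp8 -0.074 (SE 0.046). With a log2 fold change of 0.011 (SE 0.050), mt-Atp6 sat near 0 and its sign turned with scaling by library size alone (-0.0046). The 95% intervals of these 4 genes lay between -0.17 and 0.11. For mt-Co2 the log2 fold change was -0.47 (SE 0.27, adjusted p = 0.493 in edgeR, 95% interval -1.03 to 0.083, and -0.26 and -0.68 without the first and the second untreated library) and for mt-Co3 -0.011 (SE 0.23). Leaving out the second untreated library gave mt-Atp8 a log2 fold change of -0.16 and an adjusted p of 0.00155, while without the first it was 0.024. Over all alternatives that leave out a library mt-Atp8 ranged from -0.16 to 0.024.

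Palmitate against untreated cells gave no call among the 6 genes either, against 1.17% of the 14587 genes tested in the 8-library fit. At an unadjusted p under 0.05 there was 1, mt-Co2 (1753 of 14587 over all genes), and DESeq2 called 0, again with no adjusted p for mt-Co2 and mt-Co3. The log2 fold change of mt-Co2 was -0.54 (SE 0.26, adjusted p = 0.413 in edgeR), with both palmitate libraries below both untreated ones. It was -0.32 without the first untreated library and -0.75 without the second. The estimates of the abundant genes were 0.0045 (SE 0.045) for mt-Co1, -0.032 (SE 0.050) for mt-Cytb, -0.050 (SE 0.054) for mt-Atp6 and -0.039 (SE 0.052) for mt-Atp8, each smaller than its standard error. That of mt-Co1 became -0.0054 with scaling by library size alone. For mt-Co3 the log2 fold change was 0.17 (SE 0.22).

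The effect of A66 on a palmitate background was tested next. Against palmitate alone, the log2 fold change of mt-Atp6 was 0.18 (SE 0.054, unadjusted p = 0.00313, adjusted p = 0.0818 in edgeR) and that of mt-Co1 was 0.12 (SE 0.045, adjusted p = 0.198 in edgeR). In both genes the 2 libraries with palmitate plus A66 lay above the 2 with palmitate. Of the 6 genes, 0 passed the adjusted threshold, against 2.81% of all genes, and 2 had an unadjusted p under 0.05 (2101 of 14587 over all genes). DESeq2 called 1 of them, mt-Co1 (adjusted p = 0.0261), and gave mt-Atp6 an adjusted p of 0.358. Across all alternatives the adjusted p of mt-Co1 ran from 0.000911 to 0.640 and that of mt-Atp6 from 0.00120 to 0.472. With the replicate number as a block, edgeR called mt-Atp6 (log2 fold change 0.18, adjusted p = 0.0378). It was also called without the first or the second untreated library or without the first palmitate library (log2 fold change 0.18, 0.18 and 0.23, edgeR adjusted p = 0.0285, 0.0300 and 0.0414). The estimates were 0.074 (SE 0.050) for mt-Cytb, 0.035 (SE 0.052) for mt-Atp8, -0.22 (SE 0.22) for mt-Co3 and -0.019 (SE 0.27) for mt-Co2.

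The same libraries set against A66 alone gave a log2 fold change of 0.14 (SE 0.045, adjusted p = 0.0977 in edgeR) for mt-Co1 and 0.12 (SE 0.054, adjusted p = 0.287 in edgeR) for mt-Atp6, both without overlap between the groups. Here also 0 of 6 genes passed, against 2.73% of all genes, and 2 had an unadjusted p under 0.05 (2123 of 14587 over all genes). DESeq2 called 1, mt-Co1 (adjusted p = 0.00304), and gave mt-Co2 no adjusted p, and over all alternatives the adjusted p of mt-Co1 ran from 7.1e-06 to 0.480. Without the first or the second palmitate library edgeR called it as well (log2 fold change 0.14 each, adjusted p = 0.0160 and 0.0140). This comparison shares its libraries of palmitate plus A66 with the one before. The other estimates were 0.073 (SE 0.052) for mt-Atp8, 0.016 (SE 0.050) for mt-Cytb, -0.084 (SE 0.27) for mt-Co2 and -0.045 (SE 0.22) for mt-Co3.

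**Figure D4:**
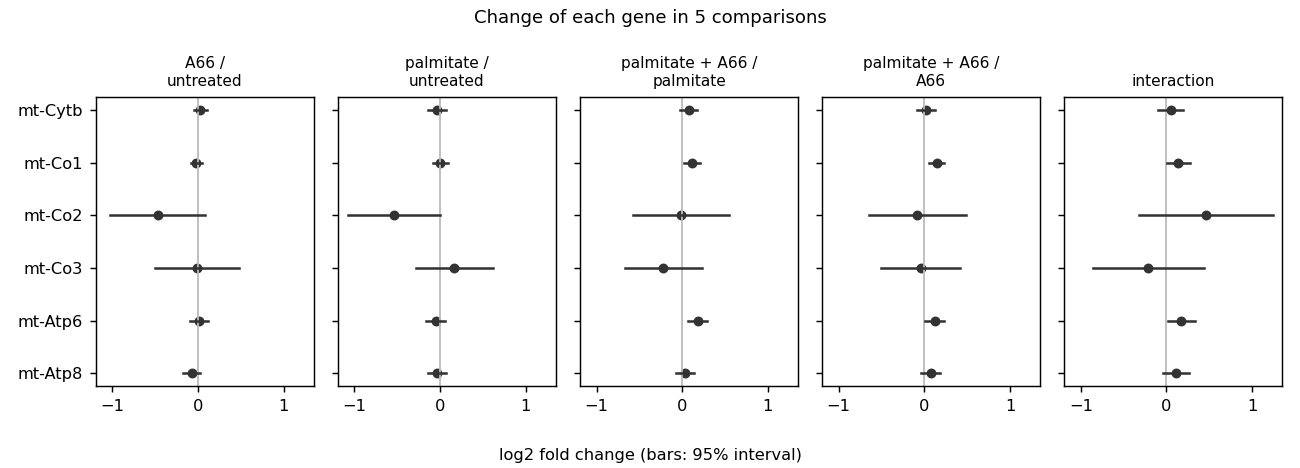
Log2 fold change of each of the 6 genes in the 5 comparisons, with points for the edgeR estimate and bars for its 95% interval. The intervals of mt-Co1 and mt-Atp6 lie above 0 in both comparisons of palmitate plus A66 and in the interaction, but their adjusted p-values are 0.0818 or higher, and the bars of mt-Co2 and mt-Co3 are the widest.

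Whether the A66 difference depended on palmitate was asked of the interaction, the log2 fold change of A66 with palmitate minus that without. Of the 6 genes 0 were called, against 0.00686% of all genes, with 2 at an unadjusted p under 0.05 (1155 of 14587 over all genes). DESeq2 called 0 and gave no adjusted p for mt-Co2 and mt-Co3. The interaction was 0.17 (SE 0.076, adjusted p = 0.598 in edgeR) for mt-Atp6 and 0.14 (SE 0.063, adjusted p = 0.611 in edgeR) for mt-Co1. It was 0.11 (SE 0.073) for mt-Atp8, 0.048 (SE 0.071) for mt-Cytb, 0.46 (SE 0.38) for mt-Co2 and -0.21 (SE 0.31) for mt-Co3. A difference in the response to A66 was thus not detected in these libraries, and the 95% interval for mt-Atp6 ran from 0.013 to 0.33. Its estimate was 0.073 without the first untreated library and 0.26 without the second.

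Counted without a test, the 2 groups of libraries did not overlap for 1 of the 6 genes with A66, 2 with palmitate, 3 for palmitate plus A66 against palmitate and 2 against A66. Over all genes tested, 42.5%, 40.5%, 44.3% and 46.6% did not overlap in these comparisons. The median log2 fold change of the 6 genes was -0.014, -0.035, 0.054 and 0.045 in the same order, and that of all genes lay within 0.0011 of 0.

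Summed, the 6 genes had 67528 ± 3134 CPM in the untreated group, 66794 ± 732 with A66, 67369.5 ± 741 with palmitate and 72570 ± 942 with both agents (mean ± SD, n = 2 each). No exact test between 2 and 2 libraries can give a two-sided p below 0.333, and none was run on these sums. As a share of the counts of all 13 mitochondrial mRNAs, the 6 genes made up 70.1 and 69.9% in untreated cells, 71.2 and 71.0% under A66, 70.7 and 70.4% under palmitate, and 72.3 and 72.2% under palmitate plus A66. The groups did not overlap in this share, which mt-Co1 dominates and to which the uncertain levels of mt-Co2, mt-Co3 and mt-Atp6 contribute, and it was higher in each group with A66 than in its counterpart without. The rest of the total, the 7 complex I mRNAs, summed to 29774 and 28184 CPM in the untreated libraries, 27200.5 and 27065 under A66, 27753 and 28489 under palmitate and 27594 and 28250 under both. With A66 alone this sum was lower in both libraries, while the mean of the 6 genes was not higher.

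The mitochondrial rRNAs, cut from the same long transcripts, gave calls where the 6 mRNAs gave none, as did mt-Nd6, the complex I mRNA encoded on the opposite strand. With A66 mt-Nd6 rose by a log2 fold change of 0.27 (SE 0.041, adjusted p = 0.000509 in edgeR), but not past the threshold in the fit of all 8 libraries (adjusted p = 0.0877). For mt-Rnr1, the RNA of the small ribosomal subunit, the level was 3776 and 3881 CPM in untreated cells, 5406 and 6684 under A66, 4256 and 5168 under palmitate, and 6078 and 7509 under palmitate plus A66. It rose with A66 by a log2 fold change of 0.66 (SE 0.057, adjusted p = 5.9e-07 in edgeR), and mt-Rnr2 of the large subunit by 0.58 (SE 0.070). On the palmitate background they rose by 0.53 (SE 0.088) and 0.47 (SE 0.099). Of these 4 rises DESeq2 called that of mt-Rnr1 with A66 alone and gave the others adjusted p-values of 0.121, 0.0810 and 0.262, and the last rise (mt-Rnr2) also failed the edgeR test without the first palmitate library or the second of palmitate plus A66 (adjusted p = 0.0952 and 0.175). For every 100 counts of mitochondrial mRNA the rRNA counts were 9.38 and 10.7 in the untreated libraries, 13.7 and 17.7 under A66, 11.3 and 13.6 under palmitate and 15.0 and 18.3 under both. Libraries were made with oligo(dT), rRNAs carry at most a short tail, and the difference between rRNA and mRNA responses was not tested.

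Among the nuclear subunits of complexes III to V, 43 of 45 listed genes were tested. Of the 43 genes, 8 fell and 0 rose in palmitate plus A66 against palmitate, and 40 had a negative estimate, with a median log2 fold change of -0.087 (over all genes 1.84% fell, 0.973% rose and the median was -0.00079). The summed level of the list was 8071 ± 382 CPM in the untreated group, 8271 ± 177 with A66, 8192 ± 5.97 with palmitate and 7723 ± 68.9 with both agents (mean ± SD, n = 2 each). The estimates of mt-Cytb, mt-Co1, mt-Atp6 and mt-Atp8 were positive and those of mt-Co2 and mt-Co3 negative in that comparison, and no test of the difference between the mitochondrial and the nuclear subunits was made.

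In complex III, Uqcr11, a small accessory subunit, had 77.1 and 82.7 CPM with palmitate against 68.3 and 65.9 with palmitate plus A66, and fell by 0.25 on the log2 scale (SE 0.051, adjusted p = 0.00625 in edgeR). Cyc1, the cytochrome c1 that passes electrons on from complex III, fell by 0.17 (SE 0.041) and the core protein gene Uqcrc1 by 0.16 (SE 0.044). The complex III member of the mitochondrial genome, mt-Cytb, had an estimate of 0.074 there.

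In complex IV the only call was Cox8b, an isoform of a small subunit known from muscle and brown fat, at 16.2 and 17.5 CPM in the palmitate libraries against 11.9 and 12.7 when A66 was added. It fell by 0.46 (SE 0.10, adjusted p = 0.0153 in edgeR), while Cox7b (-0.14, SE 0.044) and Ndufa4 (-0.16, SE 0.053) did not pass. In complex V, Atp5g1, a gene of the c-ring, fell by 0.27 (SE 0.050, adjusted p = 0.00299 in edgeR). Atp5o of the stalk, which links the catalytic head to the membrane part holding the products of mt-Atp6 and mt-Atp8, fell by 0.20 (SE 0.041), and Usmg5 and Atp5l by 0.19 each (SE 0.047 and 0.050). The 8 calls became 2 without the second palmitate library, or without either library of palmitate plus A66, and 5 without the first palmitate library.

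Against A66 alone, 8 of the 43 nuclear subunits also fell and 0 rose (over all genes 1.27% fell and 1.46% rose), with a median of -0.11. These were Uqcr11 (-0.25, SE 0.051) and Uqcr10 (-0.21, SE 0.047) of complex III, Cox8b (-0.52, SE 0.10) of complex IV, and Atp5e (-0.33, SE 0.076), Atp5k (-0.27, SE 0.057), Atp5l (-0.25, SE 0.050), Usmg5 (-0.23, SE 0.047) and Atp5j2 (-0.23, SE 0.048) of complex V. Without the first A66 library the count was 0, without either library of palmitate plus A66 it was 5 or 3, and in the fit of only the 4 libraries compared it was 14. In that fit 1 of the 6 mitochondrial genes, mt-Co1, was called (adjusted p = 0.0311).

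With A66 in the absence of palmitate, 3 of the 43 rose and 0 fell (over all genes 1.07% rose and 0.770% fell), namely Uqcr10 by 0.20 (SE 0.046, adjusted p = 0.0186 in edgeR), the complex IV subunit gene Cox7a2 by 0.21 (SE 0.051) and Atp5e, the ε subunit of the ATP synthase head, by 0.31 (SE 0.078). With 1 library left out, the estimate of Cox7a2 ran from 0.12 to 0.31 and that of Atp5e from 0.17 to 0.45. DESeq2 kept 1 of these calls, and leaving out the second untreated library gave 15, against 2 without the first, 0 without the first A66 library and 1 without the second. Palmitate alone gave 0 calls by edgeR and 0 by DESeq2 (over all genes 0.631% rose and 0.542% fell), and 6 of the 43 had an unadjusted p under 0.05 (1753 of 14587 over all genes). Estimates were 0.19 (SE 0.071) for Uqcrq, 0.32 (SE 0.13) for Cox6a2, 0.13 (SE 0.056) for Cox5b, -0.63 (SE 0.27) for Cox7a1 and 0.15 (SE 0.050) for Atp5g1. In the interaction 0 of the 43 were called by edgeR and 0 by DESeq2, and 24 had an unadjusted p under 0.05 (1155 of 14587 over all genes). There 41 of the 43 estimates were negative, with a median of -0.14 against 0.0021 over all genes. The adipocyte markers moved in the same comparisons, with 3 of 10 lower in palmitate plus A66 than in palmitate (1.84% of all genes) and 6 of 10 lower than in A66 alone (1.27%). Their summed level was 15068 to 15875 CPM with palmitate, 14516 to 15478 with both agents and 16599 to 17176 with A66. Of 9 fibroblast markers tested, 1 was higher and 2 were lower against palmitate, and 1 of 2 macrophage markers was higher against A66. Against untreated cells, 1 of the 9 fibroblast markers was higher with A66 (1.07% of all genes) and 2 with palmitate (0.631%). With palmitate 1 of the 10 adipocyte markers was lower (0.542% of all genes). The part of these markers in the values of the subunits was not tested.

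**Figure D5:**
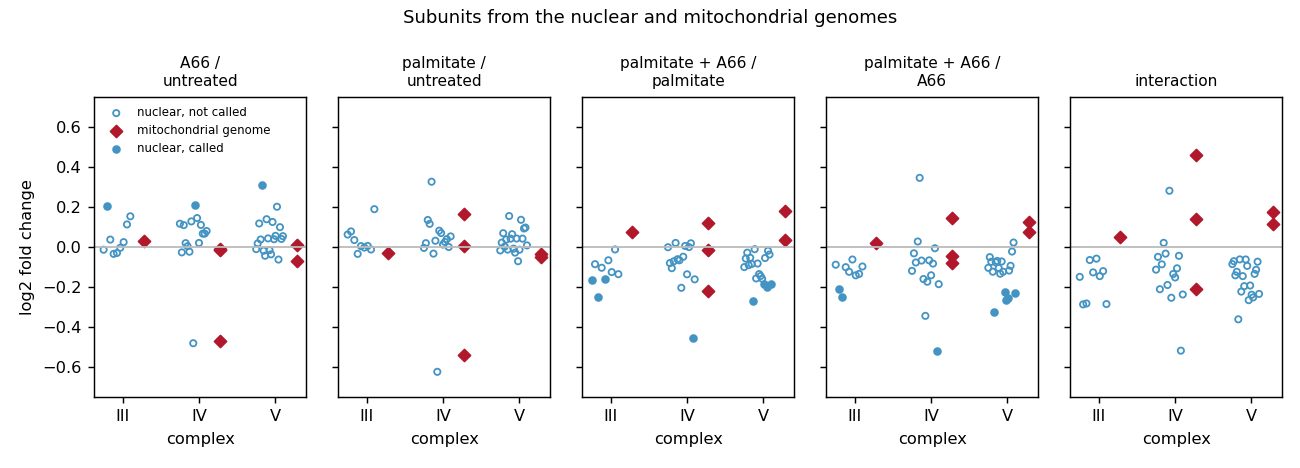
Log2 fold change of nuclear subunits (circles, filled where the adjusted p is under 0.05) and of the 6 mitochondrial genes (diamonds) of complexes III, IV and V in the 5 comparisons. In both comparisons of palmitate plus A66, 40 of 43 circles are below 0, the diamonds of mt-Cytb, mt-Co1, mt-Atp6 and mt-Atp8 are above it, and those of mt-Co2 and mt-Co3 are below it.

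Genes that act on mitochondrial DNA and RNA formed a further list. Of 44 tested, edgeR called 0 with A66 and 0 with palmitate (3 and 6 at an unadjusted p under 0.05, and 0 and 0 by DESeq2). Over all genes, 1813 of 14158 and 1753 of 14587 had an unadjusted p under 0.05 in these comparisons. The calls were 1 lower in palmitate plus A66 against palmitate, where 2.81% of all genes were called, and 1 higher and 2 lower against A66 alone, where 2.73% were. Tfam, which packages mitochondrial DNA and starts its transcription, had log2 fold changes of 0.00021 (SE 0.059) with A66, -0.071 (SE 0.055) with palmitate and -0.026 (SE 0.055) for palmitate plus A66 against palmitate. For Polrmt, the mitochondrial RNA polymerase, these were -0.10 (SE 0.067), -0.12 (SE 0.071) and 0.042 (SE 0.071).

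Lrpprc and Slirp encode partners that bind and stabilise mitochondrial mRNAs. For Lrpprc the log2 fold changes were -0.067 (SE 0.040) with A66, 0.0045 (SE 0.041) with palmitate and -0.069 (SE 0.041) for palmitate plus A66 against palmitate. For Slirp they were -0.025 (SE 0.082), 0.000033 (SE 0.081) and -0.12 (SE 0.080). None of these 4 genes passed the test in any of the 5 comparisons.

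The calls in that list were Hsd17b10, a subunit of the RNase P that cuts tRNAs from mitochondrial transcripts, which fell by 0.21 (SE 0.045, adjusted p = 0.00908 in edgeR) against palmitate and by 0.22 (SE 0.046) against A66. Against A66 the coactivator gene Ppargc1b fell by 0.41 (SE 0.078) and Lactb2, a mitochondrial endoribonuclease, rose by 0.27 (SE 0.045). Among 35 assembly factors of complexes III to V, edgeR called 0 in any of the 5 comparisons, and DESeq2 called 1, in palmitate plus A66 against A66. At an unadjusted p under 0.05 there were 0 to 7. The 7 were in palmitate plus A66 against palmitate, where 2101 of 14587 genes were under it. Nearest to a call was Pet100, needed to assemble complex IV, at -0.35 (SE 0.098, adjusted p = 0.0562 in edgeR) against A66.

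One of the nuclear copies had counts that stood apart in a single library. Gm29216, the partial copy of mt-Co1, had 51 to 384 counts in 7 libraries and 4782 in the second palmitate library. The higher of those 7 values were 187 in the second A66 library and 319 and 384 under palmitate plus A66. Its log2 fold change with palmitate was 5.18 (SE 1.02, adjusted p = 0.0101 in edgeR) and -0.48 without that library. Its 4782 counts compare with 2895280 of mt-Co1 in the same library, whose level was 53989 CPM beside 53480 in the other palmitate library.

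Across the 8 libraries the levels of the 6 genes were related to each other to very different degrees, described here by Pearson's r of log2 CPM over points that share their library, depth and group. The highest r was 0.79, between mt-Co1 and mt-Atp6, and the lowest was -0.14, between mt-Co1 and mt-Co2. Between the overlapping genes mt-Atp6 and mt-Atp8 it was 0.64. The nuclear genes most like the sum of the 6, among 8943 genes with a mean of at least 10 CPM, were Rarg (r = 0.97), Ldlrad3 (0.96), Ofd1 (0.96), Emd (0.95) and Polk (0.95). Their own levels were close to constant, for example Rarg at 34.2 to 37.2 CPM.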

How the data were processed

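Poly(A) RNA from 8 libraries (TruSeq Stranded, oligo dT) was aligned by the authors to GRCm38 with TopHat2 2.0.11, and the authors deposited the whole-number HTSeq counts of each Ensembl gene, not normalized. The annotation release, the strand setting and the handling of reads matching several places are not given in the sources used here. The 6 columns of the authors' own DESeq2 comparison (mean, fold change, its error, statistic and p-values) were not used.

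Of 43629 genes, 42462 matched a symbol in GENCODE M21, which also gave positions, lengths and transcript sequences on GRCm38. Counts were analysed with edgeR 4.0.16 in R 4.3.3 (TMM scaling, filterByExpr with a minimum count of 10, quasi-likelihood tests, two-sided, Benjamini-Hochberg adjustment over all genes tested, threshold 0.05). The contrast of A66 with untreated cells used only its own 4 libraries, and the other contrasts were taken from a fit of all 8. CPM used TMM-scaled totals, and levels between genes were divided by the longest transcript. Windows of 100 bases were searched in annotated transcripts outside the mitochondrial genome, and copies were aligned with edlib 1.3.9.post1. The methods call the 2 cultures of a group biological repeats, and no molecular identifiers are mentioned, so the Poisson interval covers counting error only, while intervals of fold changes come from the edgeR fit and its spread between replicates.

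The 6 genes, the lists and the tests were chosen with earlier results of these data known. Named were the 6 genes, up to 3 genes of each nuclear list with the smallest p in a comparison (others that were called are named to complete a count), Tfam, Polrmt, Lrpprc and Slirp, markers, copies, and the 5 genes most correlated with the sum.

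Alternatives were other scalings, DESeq2 1.42.0, other filters and fits, the replicate number as a block, a length correction (loess, span 0.4), addition of the copies' counts, and leaving out each library. Same-numbered libraries deviated together with correlations of 0.013, 0.021, 0.15 and -0.15 over 8956 genes in the 4 pairwise comparisons, so the numbers were not taken as pairs. On simulated counts with 200 genes changed by 0.5 (log2), 181 were recovered among 183 calls in the A66 comparison (14158 genes) and 179 among 195 in the palmitate comparison (14587 genes). The changed genes were drawn from those with mean counts above those of mt-Co2 and mt-Co3, and smaller changes were not simulated.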

Additional observations from a re-analysis of the deposited data

How the results depend on the processing

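Of the values of the 6 genes over all comparisons and alternatives, 493 kept their direction and their side of the threshold, 16 passed it where they had not, 0 lost it, 30 changed sign and 7 (mt-Co2 and mt-Co3 in DESeq2) kept their direction but had no adjusted p, and no scaling moved the median of all genes by more than 0.02 (log2). Low counts limit mt-Co2 and mt-Co3, which had 46 to 122 per library. Where a call or a sign changed, the cause was not tested unless fewer samples or other genes entered by construction.

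Signs changed for mt-Atp6 with A66 (-0.0046 by library size only, -0.038 with the length correction, -0.034 with that and the replicate block) and for mt-Co1 with palmitate (-0.0054 by library size only). They also changed with the copies' counts added, for mt-Co2 against palmitate (0.065), mt-Co2 and mt-Co3 against A66 (0.031 and 0.10) and mt-Co3 in the interaction (0.0034).

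In the order A66, palmitate, palmitate plus A66 against palmitate, against A66 and interaction, calls over all genes were 261, 171, 410, 398 and 1, and without a filter on low counts 459, 396, 652, 664 and 91. The interaction gave 2 calls by library size only, 8 by DESeq2 and 3 with the replicate block, with or without the length correction. Against A66 the fit of 4 libraries gave 689.

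Among the 6 genes, the 0 calls against palmitate became 1 by DESeq2, 2 without a filter, and 1 with the replicate block, with or without the length correction. The 0 against A66 became 1 by DESeq2, without a filter and in the fit of 4 libraries. Among the nuclear subunits, calls with A66 were 1 by DESeq2, 5 without a filter and 0 with the replicate block and length correction, with palmitate 1 without a filter, against palmitate 5 with the length correction, block or not, against A66 14 in the fit of 4 libraries, and in the interaction 9 without a filter.

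The replicate numbers were not taken as pairs, and the block changed no call of the 6 genes other than mt-Atp6 against palmitate. In all 4 groups, however, the second library had more CPM of mt-Rnr1 and mt-Rnr2 and less of mt-Atp8 than the first. Whether the numbers mark a shared batch was not tested. A crossed block, added after seeing the data because the correlation against A66 was -0.15, gave 1371 calls there, 2 of the 6 genes and 22 nuclear subunits.

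Leaving out each library in turn gave 98 to 635 calls with A66, 71 to 245 with palmitate, 147 to 494 against palmitate, 107 to 502 against A66 and 0 to 10 in the interaction, with 0 to 1, 0 to 0, 0 to 1, 0 to 1 and 0 to 0 of the 6 genes and 0 to 15, 0 to 2, 2 to 10, 0 to 11 and 0 to 3 nuclear subunits. A lone library left in a group is assumed to vary like the others. Log2 fold changes then ran, with A66, from -0.055 to 0.023 for mt-Co1, -0.27 to 0.20 for mt-Co3, -0.16 to 0.024 for mt-Atp8, -0.032 to 0.093 for mt-Cytb, -0.079 to 0.11 for mt-Atp6 and -0.68 to -0.26 for mt-Co2. With palmitate they ran from -0.095 to 0.034 for mt-Cytb, -0.14 to 0.048 for mt-Atp6, -0.13 to 0.059 for mt-Atp8, -0.036 to 0.046 for mt-Co1, -0.75 to -0.32 for mt-Co2 and -0.48 to 6.17 for Gm29216. Against palmitate mt-Co2 ran from -0.24 to 0.17, mt-Cytb from 0.027 to 0.12, mt-Atp8 from 0.0066 to 0.063 and mt-Co3 from -0.45 to -0.032. Against A66 mt-Co3 ran from -0.27 to 0.21, mt-Cytb from -0.031 to 0.062, mt-Co2 from -0.31 to 0.11, mt-Atp6 from 0.067 to 0.18 and mt-Atp8 from 0.028 to 0.12. In the interaction mt-Cytb ran from -0.017 to 0.11, mt-Atp6 from 0.073 to 0.26, mt-Co3 from -0.43 to 0.046, mt-Atp8 from 0.014 to 0.20 and mt-Co2 from 0.23 to 0.66.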
